A study of Mus musculus with 25 samples.

Results

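De novo fatty acid synthesis in mammary organoids was followed through 10 genes of the pathway and its regulation, taken by name from the 34866 genes of the deposited expression table. The genes were Acly, Acss2 and Me1 (supply of precursors), Acaca and Fasn (chain building), Elovl6, Scd1 and Scd2 (elongation and desaturation), and Thrsp and Srebf1 (regulators). All 10 were in the table, and all 10 passed the filter on low values in each comparison (at least 1 TPM in at least 5 of the libraries compared). TPM (transcript abundance per unit of transcript length, as a share of the library total) keeps no read counts, so the sequencing depth is unknown and the number of libraries sets the precision.

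RNA-seq was performed on 25 libraries of mammary gland organoids, which are pieces of epithelium freed from the surrounding tissue by digesting the gland. All mice, controls included, were Brca1/P53-deficient through a Cre recombinase under the K14 promoter, so the deletions were confined by design to cells in which that promoter was active, a part of the gland. The groups, 5 libraries each, were untreated multiparous mice at 1 day after weaning, multiparous mice at 1 day after cabergoline at weaning, untreated and cabergoline-treated multiparous mice at 60 days, and nulliparous mice age-matched to the 60-day groups and left untreated. Cabergoline activates dopamine receptors on the pituitary and so lowers the secretion of prolactin, the hormone of lactation. The labels give its dose as 0.2 mg per kg, and the methods state a slightly different dose. The 1-day and 60-day libraries came from separate sets of mice, so time and set cannot be told apart. No age is given in the labels. The labels number the libraries within a group, and the study's legends count mice, with fewer mice in some groups of its RNA-seq heatmaps than the libraries used here.

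Fatty acids are built from acetyl-CoA, which Acly makes from citrate and Acss2 from acetate, with NADPH in part from malic enzyme (Me1). Acetyl-CoA carboxylase (Acaca) makes malonyl-CoA, and fatty acid synthase (Fasn) joins these units into palmitate, which Elovl6 lengthens and the stearoyl-CoA desaturases Scd1 and Scd2 desaturate. Thrsp (Spot 14) is a small protein that raises the output of this pathway, and Srebf1 encodes SREBP-1, the transcription factor that switches its genes on. The same enzymes serve alveolar cells of the lactating gland, which make milk fat, and adipocytes, which store fat and surround the epithelium.

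The promoter windows of 4 members are shown because their levels differed in different ways between 2 single libraries of untreated mice at 60 days, 1 rich in milk transcripts and 1 rich in adipocyte markers. Fasn and Thrsp were high in both, Acss2 was highest in the adipocyte-rich and Srebf1 in the milk-rich library. The windows are RefSeq sequence of GRCm38.p6, 250 bases before to 50 bases after a transcript start, read 5′ to 3′ on the gene's strand. Capitals mark matches, on either strand, to the CCAAT box (CCAAT) and the GC box (GGGCGG). They lie at chr11:120824498-120824797 (minus strand) for Fasn, chr7:97417501-97417800 (minus) for Thrsp, chr11:60210422-60210721 (minus) for Srebf1 and chr2:155517793-155518092 (plus) for Acss2.
Fasn: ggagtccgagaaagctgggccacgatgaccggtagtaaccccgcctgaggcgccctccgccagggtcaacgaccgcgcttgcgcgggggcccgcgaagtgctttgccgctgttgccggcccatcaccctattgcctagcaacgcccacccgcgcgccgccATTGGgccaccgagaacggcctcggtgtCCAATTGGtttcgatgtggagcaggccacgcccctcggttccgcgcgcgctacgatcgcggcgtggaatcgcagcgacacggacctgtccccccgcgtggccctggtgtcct
Thrsp: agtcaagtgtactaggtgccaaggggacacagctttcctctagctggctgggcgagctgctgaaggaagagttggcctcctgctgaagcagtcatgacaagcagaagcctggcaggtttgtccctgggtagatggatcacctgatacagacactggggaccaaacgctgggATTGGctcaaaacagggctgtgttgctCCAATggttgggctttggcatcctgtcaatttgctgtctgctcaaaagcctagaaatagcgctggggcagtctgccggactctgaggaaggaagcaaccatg
Srebf1: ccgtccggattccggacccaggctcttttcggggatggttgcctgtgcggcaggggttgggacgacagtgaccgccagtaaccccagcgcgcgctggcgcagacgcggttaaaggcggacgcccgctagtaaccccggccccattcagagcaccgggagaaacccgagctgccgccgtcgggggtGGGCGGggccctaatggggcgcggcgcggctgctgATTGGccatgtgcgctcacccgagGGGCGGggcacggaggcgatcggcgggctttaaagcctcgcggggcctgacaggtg
Acss2: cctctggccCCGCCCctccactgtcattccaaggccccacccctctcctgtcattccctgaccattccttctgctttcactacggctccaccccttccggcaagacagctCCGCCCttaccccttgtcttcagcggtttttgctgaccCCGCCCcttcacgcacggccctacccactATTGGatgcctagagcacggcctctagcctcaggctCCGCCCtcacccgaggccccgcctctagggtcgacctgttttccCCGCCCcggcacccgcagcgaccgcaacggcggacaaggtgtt
The Fasn window held 3 CCAAT matches, of which a pair overlap in CCAATTGG, and no GC box. The Thrsp window held 2 CCAAT matches and no GC box. The Srebf1 window shown is 1 of 3 for that gene and held 1 CCAAT match and 2 GC boxes, and the Acss2 window held 1 CCAAT match and 5 GC boxes. Among the windows not shown, those of Acaca and Elovl6, 1 of Me1 and 1 of Srebf1 held no CCAAT match. The window of Acly and the remaining windows of Me1 and Srebf1 each held 1. A CCAAT match was found in 37.4% and a GC box in 35.7% of all 32851 windows of the genome. The sterol regulatory element searched (TCACNCCAC), the E-box (CACGTG) and the STAT site (TTCNNNGAA) had no match in the 11 windows of the 8 members that have one, against 1.24%, 7.15% and 8.3% of all windows. These are letter matches within the windows and nothing more.

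Some libraries stood apart from their group. For comparisons each library's TPM was divided by a scaling factor, the median over widely expressed genes (1 TPM or more in each library compared) of its ratio to the mean library, and these values are called scaled TPM. The milk score of a library is the mean log2(scaled TPM + 1) of 7 milk protein genes (caseins, Wap, Lalba, Glycam1), and the adipocyte score is the same mean over 8 adipocyte markers. Among untreated mice at 60 days, replicate 2 was milk-rich, with 55400 TPM summed over the milk genes against 38.1 to 984 in the others, Csn2 (β-casein) at 22200 TPM and Wap (whey acidic protein) at 6720 TPM. Glycam1 made up most of the sum in replicates 1, 4 and 5, at 750, 128 and 971 TPM, and stood at 0.272 TPM in replicate 3. In these 4 libraries the T cell gene Trac stood at 381, 171, 394 and 22.1 TPM. The part of T-cell-rich tissue in the Glycam1 values, and so in the milk score at 60 days, was not tested. Replicate 3 was adipocyte-rich, with 503 TPM summed over the adipocyte markers against 16.8 to 283 in the others of its group, Adipoq (adiponectin) at 67.7 TPM, Plin1 (perilipin, a coat of the fat droplet) at 112 TPM and the brown-fat gene Ucp1 at 117 TPM. Nulliparous replicate 3 carried 563 TPM of the same markers, with a lower adipocyte score (4.77 against 5.98) and Ucp1 at 3.59 TPM. Its members summed to 1290 TPM, against 5970 TPM in untreated replicate 3. The part of brown fat in the members' levels was not tested. At 1 day, untreated replicate 3 carried 2160 TPM of milk transcripts against 67600 to 323000 in the other untreated libraries, with 697 TPM over 5 T cell genes against a group median of 4.56. Skeletal muscle transcripts (6 genes) were also uneven, with Ckm (muscle creatine kinase) at 62.1, 54.6, 2240, 9520 and 41.6 TPM in untreated replicates 1 to 5 at 60 days and at 6260 TPM in cabergoline replicate 3. Luminal epithelial markers summed to a median of 41.9 TPM in untreated and 95.6 in cabergoline-treated mice at 60 days, against 496 in nulliparous mice, while T cell genes summed to 571, 1270 and 209. At 1 day the non-coding transcript Gm12895 took 28% to 56.8% of all TPM, and at most 10.5% in the other groups. The main values of the members are also given without these libraries. In such bulk samples fewer cells of a type and less RNA per cell cannot be told apart.

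**Figure D1:**
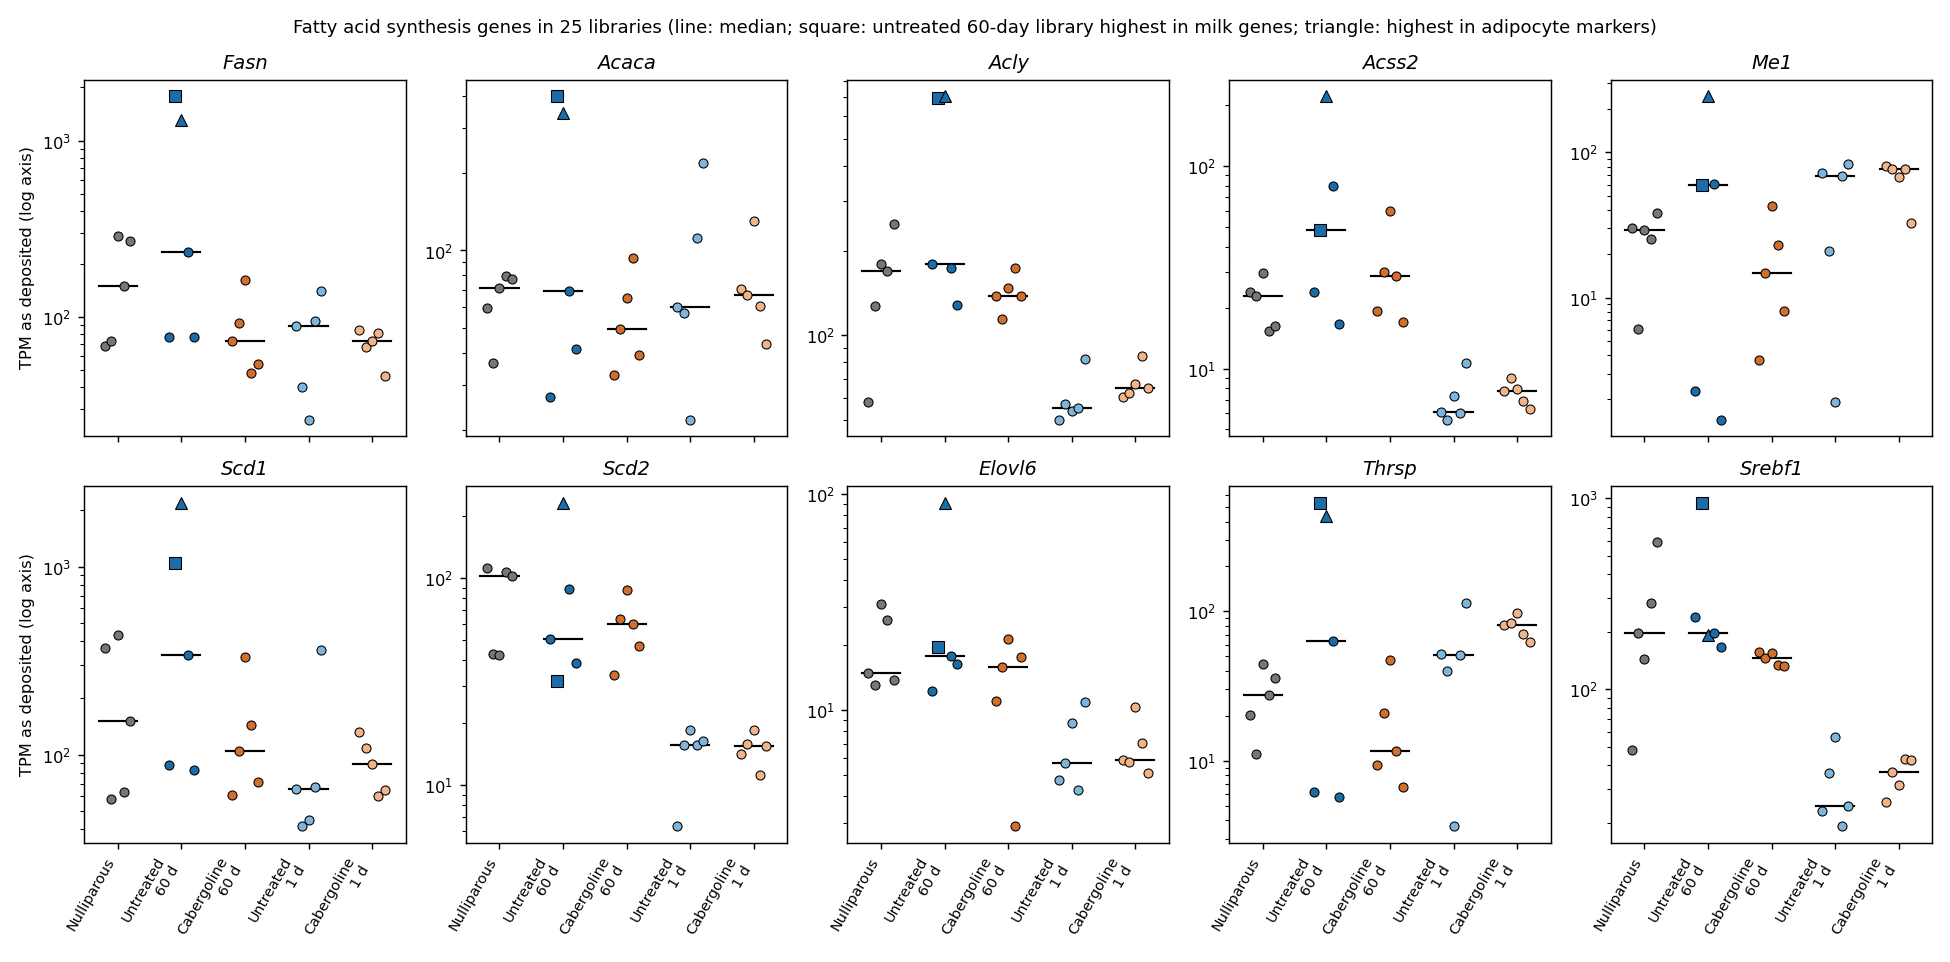
TPM as deposited (log axis) of the 10 members in each of the 25 libraries, by group; horizontal lines are group medians. The square (milk-rich) and triangle (adipocyte-rich) libraries of untreated mice at 60 days stood above the other 13 libraries of the 60-day experiment for Fasn, Acaca, Acly, Scd1 and Thrsp, whereas Srebf1 was highest in the square and Acss2, Me1, Scd2 and Elovl6 in the triangle.

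In untreated mice at 60 days, chain building was high in both of these libraries. Fasn stood at 76.7, 1790, 1310, 232 and 76.7 TPM in replicates 1 to 5. Acaca stood at 26.8, 400, 342, 69.7 and 41.3 TPM. Replicates 2 and 3 were far above the remaining 3 for both enzymes and close to each other. On the log2 scale of scaled TPM + 1, Fasn was 4.56 above the median of the other 3 libraries in the milk-rich library and 4.35 above it in the adipocyte-rich library, and Acaca 3.28 and 3.29 above it. The regulator Thrsp followed the same pattern, with 6.13, 536, 438, 63.2 and 5.71 TPM and log2 differences of 6.31 and 6.26. These are single libraries, so no test of the difference between them was made.

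The precursor genes divided. Acly, the citrate branch, stood at 179, 699, 709, 173 and 128 TPM, near-equal in both libraries (log2 2.06 and 2.32 over the other 3). Acss2, the acetate branch, stood at 23.8, 48.6, 222, 79.3 and 16.5 TPM and was 1.09 above the others in the milk-rich and 3.50 above them in the adipocyte-rich library. Me1, the NADPH source among the members, stood at 2.27, 59.4, 245, 60.2 and 1.44 TPM, with log2 differences of 4.26 and 6.52. Acss2 and Me1 were highest in the adipocyte-rich library, and replicate 4, next in adipocyte score, exceeded the milk-rich library for both. Replicate 4 was also the library richest in muscle transcripts, with the adipocyte-rich library next in its group, and their part in these levels was not tested.

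Elongation and desaturation were higher in the adipocyte-rich library. Elovl6 stood at 12.3, 19.6, 91.5, 17.8 and 16.4 TPM, log2 0.27 in the milk-rich and 2.68 in the adipocyte-rich library. Scd1 stood at 88.3, 1040, 2190, 339 and 82.8 TPM (log2 3.64 and 4.95), and Scd2 at 50.9, 32, 232, 89.1 and 38.8 TPM (log2 -0.56 and 2.50). The milk-rich library was the lowest of the 5 for Scd2 and the second for Scd1. Scd1 and Scd2 are close paralogs, and reads shared between them may have been divided in the quantification, so their separate values are uncertain.

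Srebf1 went the other way. It stood at 238, 951, 193, 197 and 167 TPM, log2 2.18 above the others in the milk-rich library and 0.13 in the adipocyte-rich one. Genes of the same pathway from the lists of non-members showed both patterns. Olah, the thioesterase that releases medium-chain fatty acids for milk, was at 162 TPM in the milk-rich library and listed at 0 in the other 4. Fads1 and Fads2, the desaturases of polyunsaturated fatty acids, were 3.44 and 4.46 higher on the log2 scale in the milk-rich library against 1.47 and 1.47 in the adipocyte-rich one. Slc25a1, the mitochondrial citrate carrier, was 1.07 and 3.42 higher, Mlxipl, the carbohydrate-response factor ChREBP, 2.90 and 4.76 higher, and Insig1, which retains SREBP in the endoplasmic reticulum, -0.50 and 2.27. These genes were chosen after their values were seen.

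**Figure D2:**
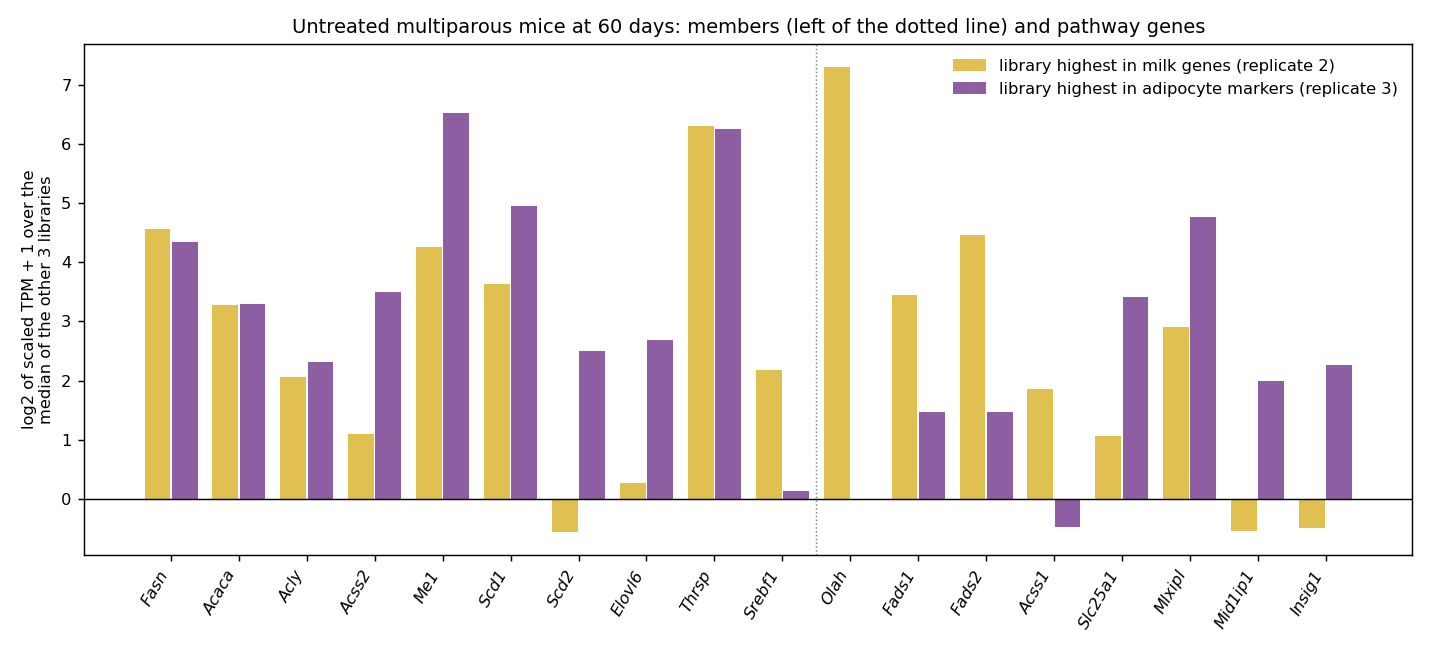
log2 ratio of scaled TPM + 1 over the median of the other 3 untreated libraries at 60 days, for the milk-rich (yellow) and the adipocyte-rich (purple) library; each bar is a single library with no error. Fasn, Acaca, Acly and Thrsp have bars of near-equal height, Srebf1, Olah, Fads1, Fads2 and Acss1 are higher in the milk-rich library, and Acss2, Me1, Scd1, Scd2, Elovl6, Slc25a1, Mlxipl, Mid1ip1 and Insig1 in the adipocyte-rich library.

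The relation to each kind of tissue was then tested over all 15 libraries of the 60-day experiment. limma fitted the slope of each gene on a score within the groups (log2 change per log2 unit of score), with Benjamini-Hochberg adjustment over all 18778 genes tested and a threshold of 0.05. Within the groups the scores had a correlation of -0.05 with each other (15 libraries, a description). On the adipocyte score 9 of 10 members had a positive slope and 2 passed the threshold, Scd1 and Acss2, against 0.128% of all genes tested (24 genes). The median slope was 0.54 for the members and 0.02 for all genes.

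Scd1 rose with the adipocyte score by 0.98 ± 0.14 (slope ± SE, limma adjusted p = 0.0138) and Acss2 by 0.61 ± 0.10 (adjusted p = 0.0402). Me1 had a slope of 1.08 ± 0.22 (adjusted p = 0.0565), Thrsp of 1.01 ± 0.23 (0.0685 by the same adjustment) and Fasn of 0.69 ± 0.19 (0.088). Srebf1 was the exception, with a slope of -0.06 ± 0.16. Leaving out single libraries moved the slope of Scd1 between 0.92 and 1.03, but Scd1 lost its call in 4 of 15 fits, without untreated replicate 1 (adjusted p = 0.0868), 3 (0.165) or 5 (0.0702) or cabergoline replicate 3 (0.0645). Acss2 (slopes of 0.48 to 0.68) lost its call in 9 of 15 fits, namely without nulliparous replicate 1 (adjusted p = 0.0912), untreated replicate 1 (0.148), 3 (0.224), 4 (0.0631) or 5 (0.152), or cabergoline replicate 1 (0.0634), 2 (0.0689), 3 (0.147) or 5 (0.0852). The number of members called was 6 without nulliparous replicate 3 or 4, where 1681 and 924 of all genes were called. It was 5 without the milk-rich library (246 genes), 1 where Acss2 alone was lost (16 to 19 genes) and 0 where both were lost (5 to 9 genes). With the replicate number as a block neither Scd1 nor Acss2 was called (adjusted p = 0.496 for both), and no gene of the table was. The labels do not say whether the numbers pair mice. Without both the milk-rich and the adipocyte-rich library 17 genes of the table were called. Scd1 (0.84 ± 0.13, adjusted p = 0.0415) was the 1 member among them, and 9 slopes were still positive. Skeletal muscle genes moved with the same score. All 6 had a positive slope, with a median of 1.34 against 1.04 for the 7 adipocyte markers tested, 5 of them at an unadjusted p under 0.05 and none past the threshold, and their part in these slopes was not tested.

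On the milk score 7 of 10 members had a positive slope, and Srebf1 alone passed the threshold, against 6.89% of all genes tested (3.88% with a positive slope). Srebf1 rose by 0.26 ± 0.06 (limma adjusted p = 0.0228). Fasn had a slope of 0.29 ± 0.13 (adjusted p = 0.211), Thrsp of 0.36 ± 0.19 (0.27), Acss2 of -0.05 ± 0.11 and Scd2 of -0.13 ± 0.10. The milk axis rests on the milk-rich library: without it no gene of the table was called, the slope of Srebf1 was 0.42 (adjusted p = 0.999) and that of Fasn -0.02. Without the adipocyte-rich library 1917 genes of the table were called. The 5 members among them were Fasn (0.45, adjusted p = 0.00567), Acly (0.24, 0.00787), Thrsp (0.57, 0.0149), Acaca (0.32, 0.0233) and Srebf1 (0.29). Luminal markers moved with the same score, all 7 with a positive slope past the threshold, as did 5 of 7 myoepithelial markers, and their part in these slopes was not tested.

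With both scores in a single fit, 5 members were called on the adipocyte score (0.463% of all genes) and 3 on the milk score (8.9%). Fasn and Thrsp were called on both. Fasn had slopes of 0.72 ± 0.13 on the adipocyte score (limma adjusted p = 0.0381) and 0.31 ± 0.07 on the milk score (0.0219), and Thrsp of 1.04 ± 0.16 (0.0245) and 0.38 ± 0.09 (0.0254). Scd1, Acss2 and Me1 were called on the adipocyte score alone and Srebf1 on the milk score alone, although a slope past the threshold on one score and not on the other is not a test that they differ. Acaca, Acly, Scd2 and Elovl6 were called on neither. These calls rest on the libraries that stand apart. Without the adipocyte-rich library no member was called on the adipocyte score (Fasn 0.46 ± 0.10, limma adjusted p = 0.109, and Thrsp 0.73 ± 0.14, 0.103). On the milk score 5 members were called, where 1557 genes of the table were. Without the milk-rich library no gene of the table was called on the milk score (Fasn 0.13 ± 0.21 and Thrsp 0.06 ± 0.26), while the 5 members remained called on the adipocyte score. The number of all genes called on that score in this fit is not given here. With the adipocyte score alone in the fit, 246 genes were called without the milk-rich library and 24 with all libraries. Without both no member was called on either score.

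**Figure D3:**
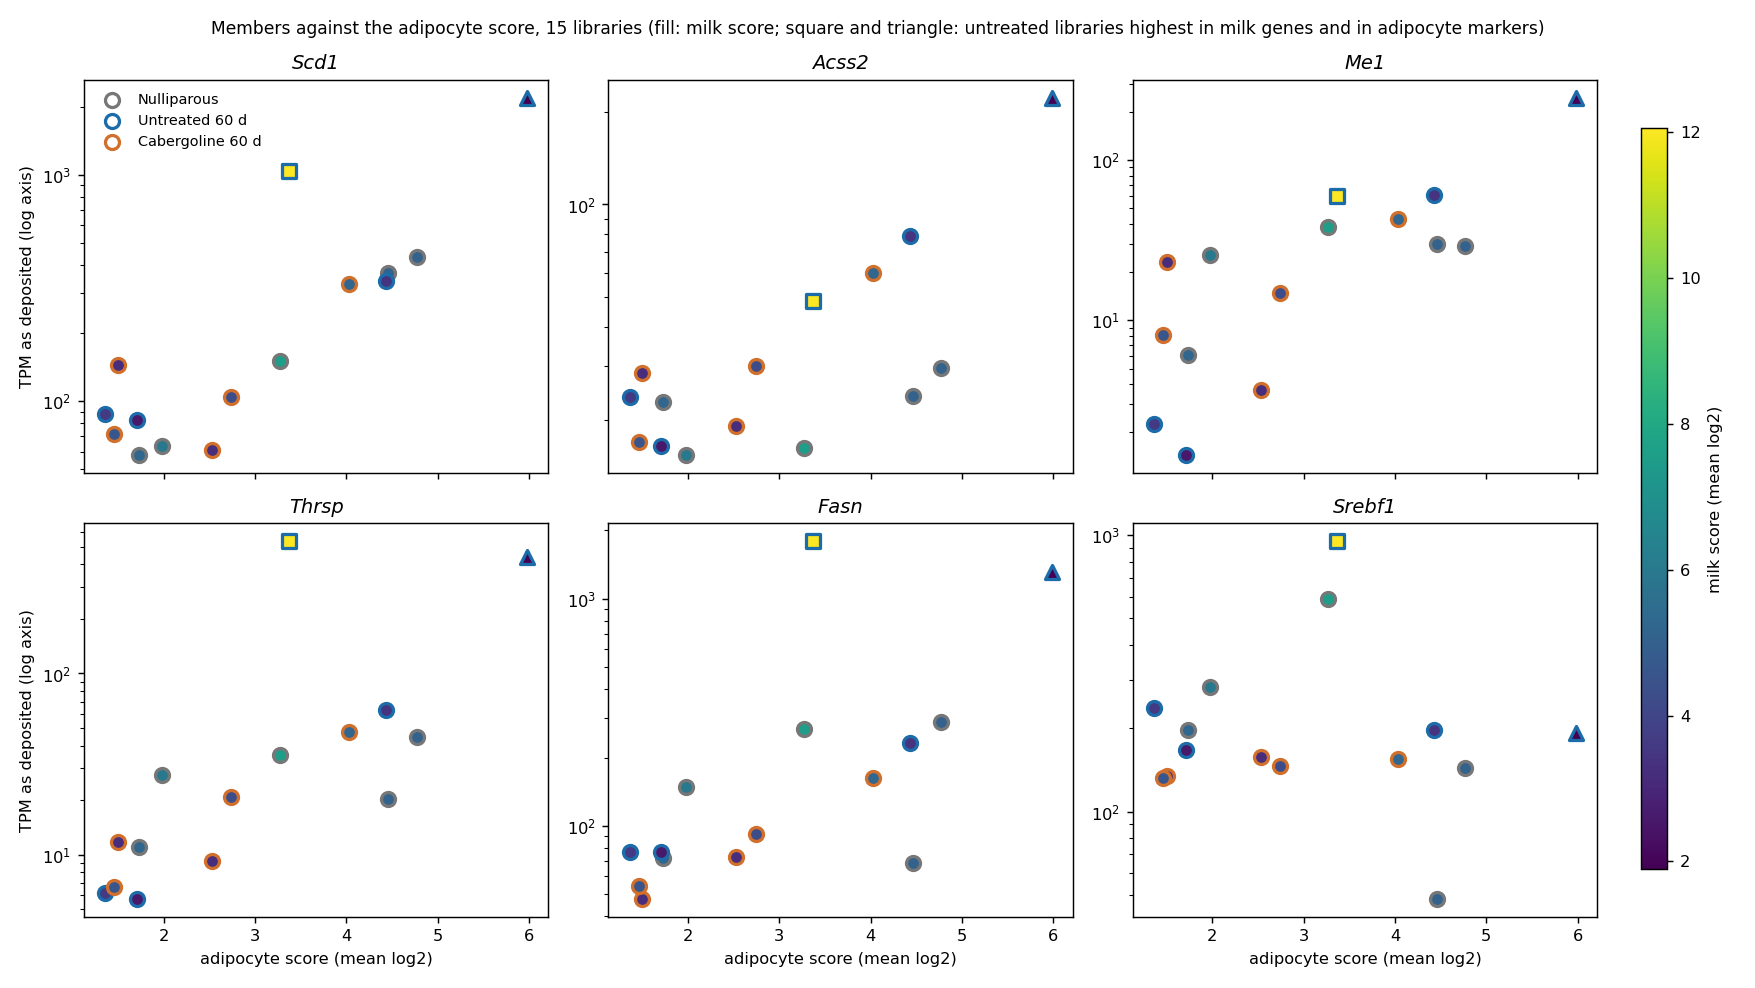
TPM (log axis) of 6 members against the adipocyte score in the 15 libraries of the 60-day experiment, with the group as the outline and the milk score as the fill colour. Scd1, Acss2, Me1, Thrsp and Fasn are high at the right-hand end (triangle, score 5.98), Fasn and Thrsp are as high in the milk-rich library (square, score 3.37), and Srebf1 is high in the square and at 193 TPM in the triangle.

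**Figure D4:**
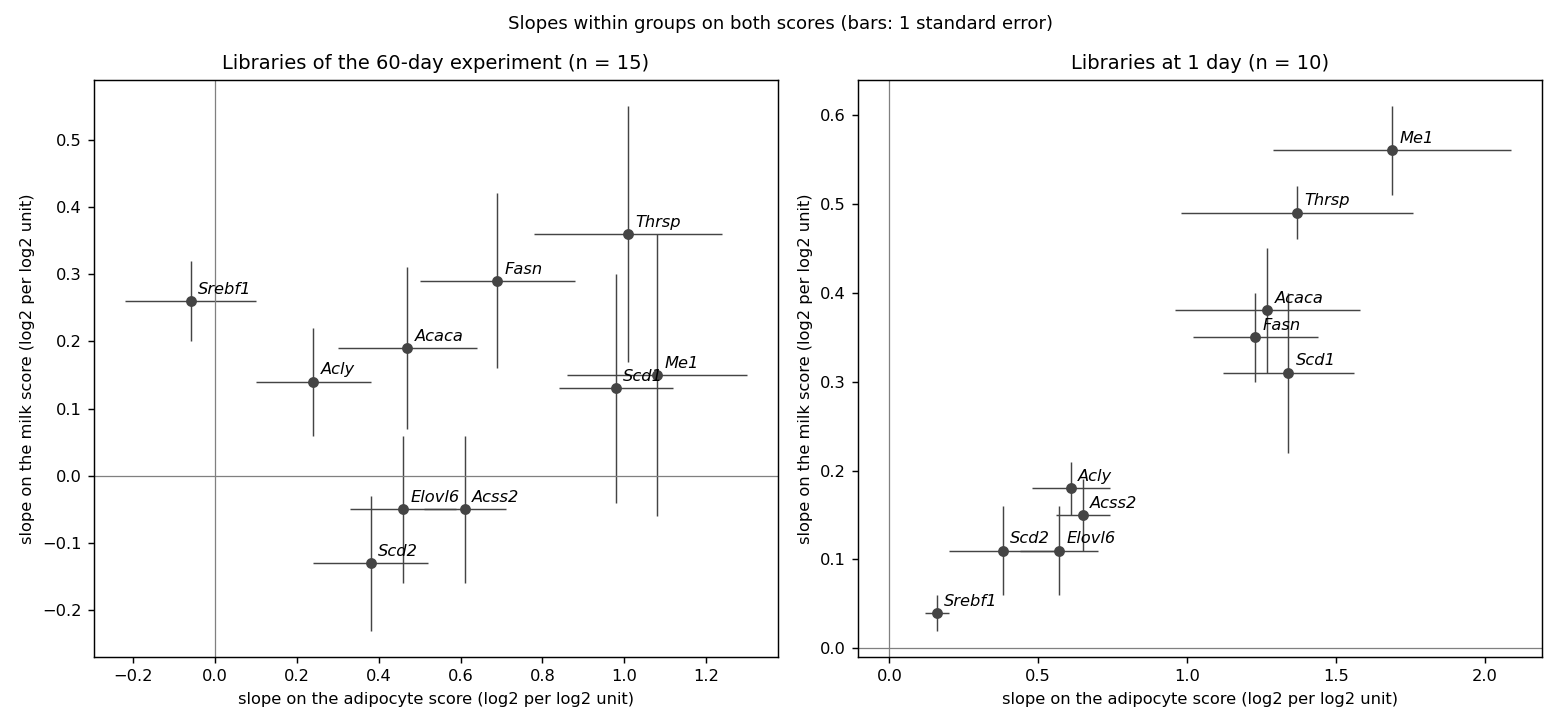
Slopes of the 10 members on the adipocyte score (x) and on the milk score (y), from separate fits, with 1 SE as bars; 15 libraries of the 60-day experiment at left and 10 libraries at 1 day at right. At 60 days Srebf1 lies at -0.06 and 0.26 and Acss2 at 0.61 and -0.05, whereas at 1 day the slopes fall along a diagonal, from Srebf1 at 0.16 and 0.04 to Me1 at 1.69 and 0.56.

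Multiparous untreated mice at 60 days were next compared with nulliparous mice, to ask how the pathway stood after earlier pregnancies. No member passed the threshold, and 0% of the 17960 genes tested did (441 genes at an unadjusted p under 0.05). Fold changes are log2 of scaled TPM + 1, from limma with the groups of the comparison in the fit. In nulliparous mice Fasn stood at 68.5, 72.7, 288, 149 and 268 TPM and Scd1 at 368, 57.8, 435, 63.2 and 151 TPM. Both ranges overlap with those of the untreated multiparous mice and begin slightly below them. Fasn differed by 1.28 ± 0.94 (SE), Scd1 by 1.31 ± 1.04, Acss2 by 1.36 ± 0.66 and Acly by 1.15 ± 0.55 (all with an adjusted p of 1), and the median of the 10 members was 0.98, against -0.03 over all genes. Without the milk-rich and the adipocyte-rich library the values were -0.28 for Fasn, -0.12 for Scd1, 0.64 for Acss2 and 0.24 for Acly.

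Cabergoline-treated mice at 60 days had lower values than untreated mice for all 10 members, and none passed the threshold, with 0% of 17644 genes called (207 at an unadjusted p under 0.05). In cabergoline-treated mice Fasn stood at 72.9, 92.1, 162, 47.8 and 54.4 TPM. Untreated replicates 1 and 5 lie within the treated range, and untreated replicates 2, 3 and 4 lie above every treated library. Thrsp stood at 9.29, 20.8, 47.4, 11.7 and 6.63 TPM and Scd1 at 60.8, 104, 331, 144 and 71.7 TPM. Cabergoline replicate 3 was highest for both. This library had both the highest adipocyte score (4.03) and the highest milk score (5.22) of its group. It was also the highest of its group in summed luminal, myoepithelial and muscle transcripts, so it cannot tell these apart. The log2 difference was -2.13 ± 0.93 for Fasn, -1.99 ± 1.30 for Thrsp and -1.71 ± 0.95 for Scd1, each with a limma adjusted p of 1. The median of the members was -1.05, against -0.02 over all genes, and in limma 2 members had an unadjusted p under 0.05, Fasn (0.0435) and Srebf1 (0.0383), as 1.17% of all genes did. All 7 adipocyte markers tested were lower as well (median -0.83), and their part in these values was not tested.

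The difference was smaller without the milk-rich and the adipocyte-rich library. Without both of them the log2 difference was -0.56 ± 0.54 for Fasn and -0.26 ± 0.69 for Scd1, while Thrsp (0.09), Me1 (0.85) and Acaca (0.24) changed sign. Srebf1 kept its direction. It stood at 157, 146, 155, 134 and 132 TPM in cabergoline-treated mice, below all 5 untreated libraries both as deposited and after scaling, where 0.125% of all genes were lower without overlap. The log2 difference was -1.01 ± 0.43 with all libraries and -0.51 ± 0.21 without both (unadjusted p = 0.0391, adjusted p = 0.999). The nulliparous libraries spanned 48.3 to 590 TPM (48.3, 197, 144, 282 and 590) and overlapped with both multiparous groups.

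Against nulliparous mice, cabergoline-treated mice had lower values for 8 of 10 members and none passed the threshold (0% of 18077 genes, 878 at an unadjusted p under 0.05). Fasn differed by -0.85 ± 0.44 (limma adjusted p = 0.891) and Acly by 0.00 ± 0.27, with 57.9, 127, 179, 169 and 249 TPM in nulliparous and 138, 114, 147, 174 and 138 TPM in cabergoline-treated mice. The narrower range of the treated mice lies inside that of the nulliparous mice. Acss2 was higher by 0.40 ± 0.38. This comparison shares its treated libraries with the preceding one and its nulliparous libraries with the one before.

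**Figure D5:**
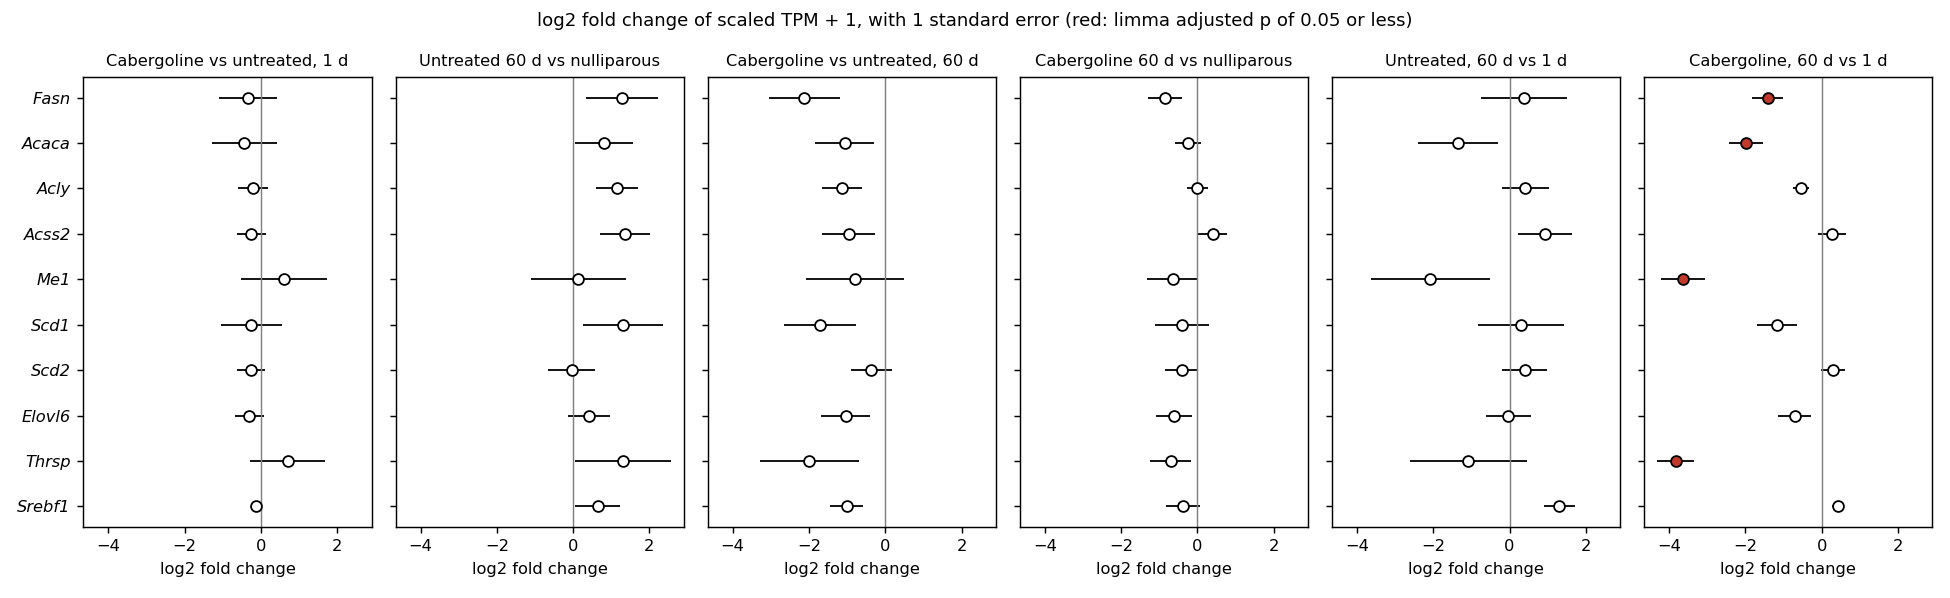
log2 fold change of scaled TPM + 1 of the 10 members in the 6 comparisons, with 1 SE as bars; red points passed the limma adjusted p of 0.05. The red points are Fasn, Acaca, Me1 and Thrsp in cabergoline-treated mice at 60 days against 1 day, at -1.42, -1.99, -3.64 and -3.83.

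At 1 day after weaning, when milk transcripts were still abundant, cabergoline-treated and untreated mice were compared for the early effect of the drug. No member passed the threshold and 0% of 14733 genes did (287 at an unadjusted p under 0.05). Fasn stood at 88.7, 39.9, 26.1, 94.9 and 140 TPM in untreated mice and at 83.9, 67.5, 73.5, 80.6 and 46.5 TPM in cabergoline-treated mice. The treated range lies within the untreated range. Thrsp stood at 51.8, 39.7, 3.63, 51.3 and 114 TPM against 81.1, 84, 97.4, 70.6 and 62.6 TPM, and Me1 at 72.3, 20.9, 1.91, 69.2 and 83.8 TPM against 80.4, 77.5, 67.2, 77 and 32.8 TPM. For both genes the lowest value belongs to untreated replicate 3, the library poor in milk transcripts.

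The log2 differences at 1 day were -0.34 ± 0.75 for Fasn, 0.60 ± 1.12 for Me1 and 0.70 ± 0.98 for Thrsp, all with a limma adjusted p of 1. Without untreated replicate 3 they were -0.93 for Fasn, -0.45 for Me1 and -0.27 for Thrsp, and without untreated replicate 5 they were 0.06, 1.09 and 1.24. Acly stood at 50, 56.8, 53.9, 54.9 and 82.1 TPM in untreated and 60.3, 62.1, 67, 84.2 and 65.1 TPM in treated mice. Replicate 5 of the untreated and replicate 4 of the treated mice were the high libraries, and the groups overlap. As deposited, TPM reversed 7 of the 10 signs, with a shift of 0.31 in the median of all genes. The test of the interaction between treatment and time called no member and 0% of 18232 genes (256 at an unadjusted p under 0.05).

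Within the 1-day groups the scaled values of the members rose with the milk score. All 10 slopes on the milk score were positive and 7 passed the threshold, where 34.3% of all genes did (17.1% with a positive slope). Thrsp rose by 0.49 ± 0.03 per unit (limma adjusted p = 2.92e-05), Me1 by 0.56 ± 0.05 (0.000131), Acaca by 0.38 ± 0.07 (0.00743) and Fasn by 0.35 ± 0.05 (0.00486). Srebf1 was the least steep, at 0.04 ± 0.02 (0.0936). Without untreated replicate 3 the slopes were 0.64 for Thrsp, 0.93 for Me1, 0.80 for Acaca and 0.80 for Fasn. These slopes depend on scaling. In untreated mice the scaling factor was 0.561 to 0.633 in replicates 1, 4 and 5 and 1.97 in the milk-poor replicate 3. As deposited, 78.1% of all genes were called on the milk score. Scd2 (-0.05), Elovl6 (-0.04) and Srebf1 (-0.14, limma adjusted p = 0.0127) then had negative slopes.

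The adipocyte score at 1 day moved with the milk score (r = 0.67 within groups over 10 libraries), and 9 members were called on it, where 55.9% of all genes were (24.1% with a positive slope). It rests on low values, with its 8 markers summing to 10.1 to 57.7 TPM in untreated and 11.4 to 47.2 TPM in treated libraries. Lep, a marker of the score, stood at 0.0961 TPM in the milk-poor untreated replicate 3 and at 2.55 to 8.89 TPM in the other 1-day libraries. Without untreated replicate 3 the slopes were 0.99 for Fasn, 1.15 for Me1, 0.82 for Thrsp and 1.23 for Scd1, and Srebf1 lost its call (0.13 ± 0.05, limma adjusted p = 0.0579). With both scores in the fit Me1 (0.45 ± 0.03), Thrsp (0.44 ± 0.04) and Fasn (0.21 ± 0.04) were called on the milk score, where 2.29% of all genes were. Scd1 (1.07 ± 0.29), Fasn (0.71 ± 0.13), Me1 (0.59 ± 0.12) and Acss2 (0.53 ± 0.11) were called on the adipocyte score, where 24.2% of all genes were. Without untreated replicate 3 no member and no gene of the table was called on either score in that fit, with Me1 at 0.83 ± 0.18 (adjusted p = 0.387) and Fasn at 0.67 ± 0.18 (0.444) on the milk score and Scd1 at 0.67 ± 0.67 (0.981) on the adipocyte score. As deposited, without scaling, 0 members and 0% of genes were called on the adipocyte score at 1 day, against 9 members after scaling. Epithelial and immune markers moved with both scores at 1 day. All 7 luminal markers had a positive slope past the threshold on the adipocyte score (median 1.68, against 0.97 for the 8 adipocyte markers, all of them called) and on the milk score (median 0.59), as did 6 of 7 myoepithelial markers on the adipocyte score. All 5 T cell genes had a negative slope past the threshold on both (median -2.59 and -0.54), and the part of these cells in the slopes was not tested.

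Between 1 and 60 days part of the pathway fell in cabergoline-treated mice. At 60 days 4 of 10 passed the threshold, all as lower, where 21.4% of genes were called in either direction, 12.2% of the 16457 genes tested as lower and 9.14% as higher. Thrsp, at 62.6 to 97.4 TPM at 1 day and 6.63 to 47.4 TPM at 60 days, fell by 3.83 ± 0.48 on the log2 scale (limma adjusted p = 0.000547), and Me1 fell by 3.64 ± 0.58 (0.00216). The scaled ranges of both genes did not overlap between the times, where 10.8% of genes were lower without overlap. Acaca fell by 1.99 ± 0.45 (0.0117) and Fasn by 1.42 ± 0.40 (0.0307). Fasn lost its call in 7 of 10 fits that left out a single library, with values from -1.22 to -1.69, namely without cabergoline-treated replicate 1 (-1.41), 2 (-1.46) or 5 (-1.25) at 60 days, or replicate 1 (-1.22), 2 (-1.48), 3 (-1.33) or 4 (-1.43) at 1 day. Markers of several cell types moved between the times. All 7 luminal markers (median -4.38), all 7 milk genes (median -11.12), 3 of 7 myoepithelial markers and 1 of 8 adipocyte markers were called as lower at 60 days, and the 5 T cell genes were higher with none past the threshold (median 1.44). Their part in the members' values was not tested.

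The comparison over time depends on scaling. As deposited, the median of all genes was 1.42 higher at 60 days in cabergoline-treated and 1.61 in untreated mice, shifts of 1.34 and 1.50 from the scaled fits, and 96.2% and 99.5% of called genes were higher, against 42.7% and 26.9% after scaling. Thrsp (-2.31) and Me1 (-2.13) were still called as lower in the deposited values of cabergoline-treated mice, while Fasn (0.17) and Acly (1.05) changed sign and Acaca (-0.40) lost its call. Srebf1 stood at 25.5, 36.9, 31.4, 43.3 and 42.4 TPM at 1 day in treated mice, below every 60-day library of that treatment. It was higher at 60 days by 0.42 ± 0.14 after scaling (limma adjusted p = 0.0551) and by 2.00 as deposited (0.000123).

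In untreated mice no member passed the threshold over time, where 1.21% of 16312 genes did. Srebf1 was higher at 60 days by 1.30 ± 0.41 (limma adjusted p = 0.135), with no overlap between 23.1, 36.5, 55.9, 19.1 and 24.5 TPM at 1 day and the 60-day libraries, where 3.4% of genes were higher without overlap. Me1 differed by -2.08 ± 1.56 and Thrsp by -1.08 ± 1.54, with the milk-rich and adipocyte-rich libraries among the 60-day values. Without them the differences were -3.52 ± 1.64 and -3.06 ± 1.39 (adjusted p = 0.227 and 0.22), close to those of treated mice.

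The remaining members over time can be given by range. Acss2 spanned 5.58 to 10.7 TPM in the 1-day libraries of both groups together and 16.5 to 222 TPM in the 10 multiparous libraries at 60 days. Scd2 spanned 6.31 to 18.4 TPM at 1 day and 32 to 232 TPM at 60 days, and Elovl6 4.27 to 10.9 and 2.9 to 91.5 TPM. The levels as deposited of Acss2 and Scd2 do not overlap between the times, but after scaling their differences in cabergoline-treated mice were 0.27 ± 0.36 and 0.29 ± 0.31.

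Other genes of the pathway were counted by list. Of 9 genes of acetyl-CoA and NADPH supply, 3 fell over time in cabergoline-treated mice, where 12.2% of all genes were called as lower, Pgd (the second NADPH-yielding step of the pentose phosphate pathway) by 1.37 ± 0.19 (limma adjusted p = 0.00106) and Slc25a1 by 1.39 ± 0.26 (0.00497) among them. Of 4 genes of the other carboxylase and chain termination 1 fell, Olah by 5.84 ± 0.39 (9.62e-06). Of 10 further elongases and desaturases, 9 of them tested, 4 fell, Fads1 by 1.48 ± 0.28 (0.00549) and Hsd17b12, the ketoacyl reductase of chain elongation, by 1.83 ± 0.36 (0.00648) among them. None of 6 SREBP processing genes and 6 carbohydrate or sterol response factors was called in that comparison, and none of the 35 listed genes in any comparison of treatment or parity. Srebf2, the sterol-directed partner of Srebf1, differed by 0.20 ± 0.16 over time in treated mice.

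On the adipocyte score at 60 days Mlxipl was the 1 gene of these lists that was called, with a slope of 1.03 ± 0.17 (limma adjusted p = 0.0358). On the milk score Fads1 rose by 0.33 ± 0.08 (0.0182), Fads2 by 0.42 ± 0.11 (0.0282) and Acss1, the mitochondrial acetyl-CoA synthetase, by 0.21 ± 0.06 (0.0423). Idh1, the cytosolic NADP-dependent isocitrate dehydrogenase, fell with the milk score by 0.23 ± 0.06 (0.0264). Of the enzymes for acetate, cytosolic Acss2 was called on the adipocyte score and mitochondrial Acss1 on the milk score, where 6.89% of all genes were called. The difference between them was not itself tested. Acss2 lost its call in most fits that left out a single library, and without the milk-rich library no gene was called on the milk score.

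Among themselves the members were most alike for Thrsp with Me1 (Spearman rho = 0.94 of scaled TPM over the 15 libraries of the 60-day experiment) and with Fasn (0.92). Srebf1 ranked with Acly (0.71) and had a rho near 0 with Acss2 (-0.02), Scd2 (0.02), Elovl6 (0.02) and Scd1 (0.06). Without the milk-rich and the adipocyte-rich library, over 13 libraries, the values were 0.92 for Thrsp with Me1 and 0.88 with Fasn, and for Srebf1 0.60 with Acly, -0.35 with Acss2, 0.10 with Scd2, -0.19 with Elovl6 and -0.30 with Scd1. Of all genes tested, Gpd1, the cytosolic glycerol-3-phosphate dehydrogenase, was most like Thrsp (0.99), followed by Gm7049 (0.98) and Pnpla2, the adipose triglyceride lipase (0.97). Hadh, an enzyme of fatty acid oxidation, was most like Fasn (0.93), and Adra1a most like Acaca (0.96). The libraries share tissue make-up and scaling, and over the 10 libraries at 1 day the closest genes to Thrsp reached a rho of 1.00, so these are descriptions.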

How the data were processed

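RNA was extracted from organoids, depleted of ribosomal RNA and sequenced, and the deposited values are TPM, which the authors obtained by quantification with Salmon. The submitters' processing notes name Salmon and the genome build GRCm38; the annotation release is not given in the sources used here. Gene symbols were matched to 34582 of the 34866 gene IDs. All 25 libraries entered, 5 per group, grouped by the labels.

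Each library was scaled by its median ratio to the geometric mean over libraries, and limma 3.58.1 (R 4.3.3, moderated with an intensity trend, two-sided) was fitted to log2(scaled TPM + 1) for genes that reached 1 TPM in 5 or more libraries of the fit, with Benjamini-Hochberg adjustment over all genes tested and a threshold of 0.05. A difference on this scale understates the change of low genes. The count-based test of the study's methods needs counts, so limma on the log scale was used instead. Slopes on the adipocyte and milk scores were fitted with group as a factor. P-values measure the spread between libraries, which the labels number within groups. Tables and plots used Python 3.11.15, pandas 2.3.3, numpy 2.4.6 and matplotlib 3.10.9, and the fits were checked on simulated data.

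Members, lists and scores were chosen with earlier results of these data known. All members were named, together with the 2 called genes of smallest p in each pathway list (or the 2 of highest mean TPM), the 3 genes most alike in rank to each member, and Adipoq, Plin1, Csn2 and Wap; other genes named were chosen after their values were seen. Alternatives covered scaling, pseudocount, filter, library weights, score covariates, a replicate block and libraries left out. Leaving out both outlying untreated 60-day libraries, leaving out the libraries that stand apart from the fits with both scores and from the rank correlations, and scores without Lep or Glycam1, were chosen after seeing the data. Promoter windows were from RefSeq (GRCm38.p6) and gene IDs from GENCODE names.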

Additional observations from a re-analysis of the deposited data

Results flagged for a closer look

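In 9 of 50 groups of 5 libraries a member's TPM had its highest or lowest library far from the others. The gap exceeded Dixon's critical value of 0.71 of the range. Chance does this in about 1 of 20 groups of independent, normally distributed values. TPM are skewed and the 50 groups share their libraries, so that rate does not hold here and the count cannot be judged against it. In untreated mice at 60 days the adipocyte-rich library was the high one for Me1 (245 TPM, the others 1.44 to 60.2), Scd2 (232 TPM, the others 32 to 89.1) and Elovl6 (91.5 TPM, the others 12.3 to 19.6), and the milk-rich library was the high one for Srebf1 (951 TPM, the others 167 to 238). In untreated mice at 1 day replicate 5 was high for Scd1 (362 TPM, the others 41.5 to 67) and Acly (82.1 TPM, the others 50 to 56.8), and replicate 1 was low for Scd2 (6.31 TPM, the others 15.6 to 18.4). In cabergoline-treated mice at 1 day replicate 4 was high for Acly (84.2 TPM, the others 60.3 to 67) and replicate 5 low for Me1 (32.8 TPM, the others 67.2 to 80.4).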

How the results depend on the processing

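Under the alternatives other than single libraries left out, 557 member values kept their direction and their side of the threshold, 52 lost a call, 19 gained a call and 62 changed sign, as did 1037, 46, 23 and 54 when single libraries were left out. The cause was not tested for any of these changes. The counts and medians that moved by over 1.5 times or beyond the spread were as follows, with the share of all genes called in brackets. With TPM as deposited, the members called numbered 6 (73.8%) for time in untreated mice. Those for the adipocyte slope numbered 1 (0.0692%) at 60 days and 0 (0%) at 1 day. The members' median was 2.18 for time in untreated mice, against 1.61 over all genes. For time in treated mice it was 0.58, against 1.42 over all genes. With library quality weights, the members called numbered 3 (52.9%) for time in untreated mice and 7 (52.6%) for time in treated mice. With a pseudocount of 0.1, the members called numbered 1 (0.117%) for the adipocyte slope at 60 days. Without the milk-rich and the adipocyte-rich library, the members called at 60 days numbered 1 (0.0918%) for the adipocyte slope and 0 (0%) for the milk slope. With both scores in that fit they numbered 0 (0.0486%) for the adipocyte slope and 0 (0%) for the milk slope. With no filter on low values, the members called numbered 1 (0.0605%) for the adipocyte slope at 60 days. With the replicate number as a block, the members called at 60 days numbered 0 (0%) for the adipocyte slope and 0 (5.83%) for the milk slope. With both scores in the fit, the members called at 60 days numbered 5 (0.463%) for the adipocyte slope and 3 (8.9%) for the milk slope. At 1 day they numbered 4 (24.2%) and 3 (2.29%). Without the 2 libraries farthest from the median of the score, the members called at 60 days numbered 0 (0.239%) for the adipocyte slope. They numbered 0 (0%) for the milk slope at 60 days and 5 (43.6%) for the adipocyte slope at 1 day. With Lep left out of the adipocyte score, the members called numbered 1 (0.107%) for the adipocyte slope at 60 days. The main counts were 0 (1.21%) for time in untreated mice and 4 (21.4%) for time in treated mice. For the adipocyte and milk slopes they were 2 (0.128%) and 1 (6.89%) at 60 days, and 9 (55.9%) and 7 (34.3%) at 1 day.

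The values that changed sign were as follows. With TPM as deposited, for treatment at 1 day Fasn 0.06, Acly 0.20, Acss2 0.10, Scd1 0.14, Scd2 0.11, Elovl6 0.03 and Srebf1 0.25, for time in untreated mice Acaca 0.50, Elovl6 1.69 and Thrsp 0.72, for time in treated mice Fasn 0.17, Acly 1.05, Scd1 0.42 and Elovl6 0.73, for the adipocyte slope at 1 day Scd2 -0.22 and Srebf1 -0.45, for the milk slope at 1 day Scd2 -0.05, Elovl6 -0.04 and Srebf1 -0.14. With library quality weights, for treatment at 1 day Me1 -0.86 and Thrsp -0.60, for untreated against nulliparous Scd2 1.16, for treated against nulliparous Scd2 0.27, for time in untreated mice Fasn -0.85, Acly -0.45 and Scd1 -0.44. With the milk score as a covariate, for treatment at 1 day Me1 -0.27 and Thrsp -0.07. With a pseudocount of 0.1, for untreated against nulliparous Me1 -0.03. With the adipocyte score as a covariate, for untreated against nulliparous Me1 -0.01, for treatment at 60 days Me1 0.41 and Scd2 0.09, for treated against nulliparous Scd1 0.31. Without the milk-rich and the adipocyte-rich library, for untreated against nulliparous Fasn -0.28, Acaca -0.47, Me1 -1.50, Scd1 -0.12, Elovl6 -0.20 and Thrsp -0.78, for treatment at 60 days Acaca 0.24, Me1 0.85 and Thrsp 0.09, for time in untreated mice Fasn -1.16, Acly -0.49 and Scd1 -1.13, for the milk slope at 60 days Acss2 0.02, Scd2 0.30 and Elovl6 0.18, for the adipocyte slope at 60 days with both scores in the fit Acly -0.01, for the milk slope at 60 days with both scores in the fit Acaca -0.01, Scd1 -0.11, Scd2 0.26 and Elovl6 0.14. With the replicate number as a block, for the adipocyte slope at 60 days Srebf1 0.02. Without the 2 libraries farthest from the median of the score, for the adipocyte slope at 60 days Srebf1 0.01, for the milk slope at 60 days Fasn -0.30, Acaca -0.55, Acly -0.37, Me1 -0.26, Scd1 -0.59, Elovl6 0.02 and Thrsp -0.37.

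When single libraries were left out, 0 to 6 members were called on the adipocyte slope and 0 to 5 on the milk slope at 60 days. The 6 came from fits that called 1681 and 924 of all genes, and the 5 on the milk slope from a fit that called 1917. With both scores in the fit and the libraries that stand apart left out singly, 0 to 5 were called on each score at 60 days and 0 on each at 1 day. The 5 on the milk score came from a fit that called 1557 of all genes. For the 5 on the adipocyte score, called without the milk-rich library, the number of all genes called is not given here. These members changed sign in at least 1 fit. For treatment at 1 day the values ran Fasn from -0.93 to 0.06, Acaca from -1.13 to 0.09, Acly from -0.50 to 0.05, Me1 from -0.45 to 1.09, Scd1 from -0.73 to 0.43 and Thrsp from -0.27 to 1.24. For untreated against nulliparous the values ran Me1 from -0.76 to 0.97, Scd2 from -0.53 to 0.24 and Elovl6 from -0.11 to 0.67. For treatment at 60 days the values ran Me1 from -1.62 to 0.11 and Scd2 from -0.64 to 0.13. For treated against nulliparous the values ran Scd1 from -0.79 to 0.04. For time in untreated mice the values ran Fasn from -0.23 to 0.92, Scd1 from -0.42 to 0.97, Scd2 from -0.10 to 0.68 and Elovl6 from -0.56 to 0.27. For time in treated mice the values ran Acss2 from -0.01 to 0.47. For the adipocyte slope at 60 days the values ran Srebf1 from -0.14 to 0.02. For the milk slope at 60 days the values ran Fasn from -0.02 to 0.45, Acaca from -0.30 to 0.32, Acly from -0.08 to 0.24, Acss2 from -0.29 to 0.06, Me1 from -0.03 to 0.36, Scd1 from -0.40 to 0.30, Scd2 from -0.17 to 0.03, Elovl6 from -0.12 to 0.06 and Thrsp from -0.15 to 0.57. For the adipocyte slope at 60 days with both scores in the fit the values ran Acly from -0.01 to 0.24. For the milk slope at 60 days with both scores in the fit the values ran Acaca from -0.21 to 0.30, Acly from -0.03 to 0.24, Acss2 from -0.17 to 0.01, Scd1 from -0.21 to 0.21, Scd2 from -0.06 to 0.11 and Elovl6 from -0.03 to 0.03. For the adipocyte slope at 1 day with both scores in the fit the values ran Acaca to -0.14 and Scd2 to -0.38. For the milk slope at 1 day with both scores in the fit the values ran Srebf1 to -0.01.

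The labels do not say whether the replicate numbers pair mice, and the correlation of deviations from the group means cannot settle it. At most 3 of 5 same-numbered pairs had a correlation over 0.1 (from -0.78 to 0.65). For treatment at 60 days 5 samples correlated best with their own number. With the replicate block, 2 called slopes on the adipocyte score and 1 on the milk score at 60 days fell to 0. Depth is unknown from TPM, 5 libraries a group limit the precision, and time, set of mice and scaling cannot be told apart.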
